A study of Homo sapiens with 25 samples.

Results

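The nuclear-encoded subunits of the mitochondrial respiratory chain were followed by RNA immunoprecipitation sequencing (RIP-seq), in which an RNA-binding protein is pulled out of a cell lysate and the RNA that comes down with it is sequenced. The genes were chosen by symbol. They are the protein-coding genes outside the mitochondrial genome whose symbol starts with NDUFA, NDUFB, NDUFC, NDUFS or NDUFV and a digit, with UQCR, with COX and a digit from 4 to 8, or with ATP5, together with SDHA, SDHB, SDHC, SDHD and CYC1. This rule gave 90 of the 20044 protein-coding genes, of which 37 belong to complex I, 4 to complex II, 10 to complex III, 19 to complex IV and 20 to the ATP synthase, complex V. IGF2BP1 with an mCherry tag, a red fluorescent protein, was the protein pulled down. It was expressed in HCT116, a human colorectal carcinoma line, after knockout of IGF2BP2 and IGF2BP3, in cells that also carry Tet-OsTIR1-PURO. The fusion protein was wild-type (WT) or carried S181E or Y396E, glutamate substitutions that mimic phosphorylation in the disordered linkers of the protein, or RQ, in which arginines of linker 1 are replaced by glutamine. Cells received PBS as the control or 500 µM sodium arsenite, an oxidative stressor, for 2 h, and each of these 8 groups had 3 libraries except RQ in arsenite with 2. Parental HCT116 cells, which have neither the knockouts nor the fusion protein, gave 1 library per treatment for the RNA that sticks to the beads. Each fusion was introduced by lentivirus and its cells were sorted as a population within a narrow mCherry gate, so each genotype is 1 transduced population, and the replicates are dishes plated and grown independently. The values are levels in the pull-down, which were not divided by the RNA level in the cells. Fewer cells that hold an mRNA, less of it per cell and less of it bound to the protein cannot be told apart.

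The respiratory chain sits in the inner mitochondrial membrane. Complex I takes electrons from NADH and complex II from succinate, complex III passes them to cytochrome c, complex IV hands them to oxygen, and complex V uses the resulting proton gradient to make ATP. Each complex except II also holds subunits encoded by mitochondrial DNA, but the subunits described here are translated from nuclear mRNAs in the cytoplasm and imported. IGF2BP1 is a cytoplasmic RNA-binding protein with RRM and KH domains that is known for binding the zipcode of β-actin mRNA, and it joins stress granules when arsenite blocks translation.

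The subunits differ widely in size, and their mRNAs differ with them. ATP5F1B (chr12:56638175-56645984 in hg38, minus strand), the catalytic β subunit of ATP synthase, has a coding sequence of 1590 nt in the reference transcript, against 156 nt for ATP5F1E, the ε subunit of the same enzyme, and 177 nt for ATP5MJ, a small membrane subunit. Sequences were read from the canonical GENCODE v44 transcripts and are shown because the short and the long mRNAs went opposite ways in arsenite. The whole coding sequence of ATP5F1E, which encodes 51 residues, and that of ATP5MJ, which encodes 58, are written with the start and stop codons in capitals.
ATP5F1E: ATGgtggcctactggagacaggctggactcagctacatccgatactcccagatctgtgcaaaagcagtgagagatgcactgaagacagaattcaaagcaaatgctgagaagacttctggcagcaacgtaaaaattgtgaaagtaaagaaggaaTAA
ATP5MJ: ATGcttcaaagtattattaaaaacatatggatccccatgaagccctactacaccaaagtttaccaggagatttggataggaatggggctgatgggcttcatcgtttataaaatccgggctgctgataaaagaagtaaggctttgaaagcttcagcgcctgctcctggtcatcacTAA

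A pattern modelled on the known bipartite element of IGF2BP1 was searched in the same transcripts on the sense strand, namely GGAC, then 10 to 25 bases, then an A or a C followed by CAC or CAT. The pattern was held by 43 of the 66 mRNAs that were abundant enough to test (65.2%) and by 7704 of all 8734 mRNAs tested (88.2%), at 0.723 and 0.835 matches per kilobase. All matches shown lie in coding sequence, with both parts of the pattern in capitals. They come from mRNAs that rose in the WT pull-down in arsenite, and 6 of the 17 mRNAs that fell hold the pattern too.
ATP5F1B, chr12:56645330-56645349, exon 2, minus strand: GGACtatgcggcgcaaACAT
UQCRC1, chr3:48601383-48601410, exon 7, minus strand: GGACatatgcagaggacgctgtgcCCAC
NDUFV1, chr11:67611899-67611916, exon 8, plus strand: GGACatcgtgaaagCCAT
ATP5PB, chr1:111454228-111454251, exon 3, plus strand: GGACctttcatacagggcagCCAC
These are matches of letters in the transcripts, and binding at them was not measured.

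Across the series, mCherry libraries held 22246381 to 60273548 counts, of which 13986350 to 37416271 fell on protein-coding genes, and the parental libraries held 742207 protein-coding counts in the control and 15941432 in arsenite. The respiratory chain mRNAs took 0.245 to 0.5785% of the protein-coding counts in mCherry libraries and 0.9026 and 0.9196% in the parental ones. Control replicate 3 had the lowest share of its group in each of the 4 lines (0.245% in WT, 0.2573% in S181E, 0.3254% in Y396E and 0.2612% in RQ), and its part in the results was checked by leaving these libraries out. Of the colon epithelial markers, KRT8 had a median of 547 CPM (protein-coding counts per 1e6, after TMM scaling) over the mCherry libraries and EPCAM 72.8 CPM, whereas ALB and PTPRC, which mark hepatocytes and leukocytes, had medians of 0. The fibroblast marker COL1A1 was not absent, with 1.58 to 13.4 CPM in mCherry libraries and 32.8 CPM in parental arsenite. The endothelial marker PECAM1 was at most 1.42 CPM in mCherry libraries and had 24.3 CPM in parental control. IGF2BP1 mRNA itself lay between 37.2 and 123 CPM in mCherry libraries and had 0 counts in both parental ones. It differed by line. In arsenite it had 37.2 to 42.4 CPM in WT, 40.8 to 42.3 in S181E, 52.0 to 52.3 in Y396E and 79.6 and 81.7 in RQ. In control it had 60.9 to 70.1 CPM in WT, 65.1 to 68.0 in S181E, 71.4 to 109 in Y396E and 103 to 123 in RQ. The part of this in the differences between lines was not tested.

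The summed level of the 90 mRNAs, on the CPM scale, was 3524 ± 509 in WT control and 4320 ± 98.3 in WT arsenite (SD, n = 3). It was 3369 ± 576 and 4613 ± 322 in S181E, and 3573 ± 365 and 5282 ± 311 in Y396E (SD, n = 3 each). RQ had 4068 ± 1063 in control (SD, n = 3) and 4675 and 5372 in its 2 arsenite libraries. The 3 Y396E arsenite libraries, at 4926 to 5495, were all above the 3 WT arsenite libraries, at 4206 to 4377. The sum is led by few genes. ATP5F1B alone averaged 711 CPM over the 23 mCherry libraries. Per kilobase of counted exon, the highest levels by complex were 404 CPM for ATP5F1B in complex V, 167 for COX8A, a small subunit of complex IV, 102 for CYC1, the cytochrome c1 of complex III, 54.6 for NDUFB4, an accessory subunit of complex I, and 29.7 for SDHB, the iron-sulfur subunit of complex II.

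**Figure D1:**
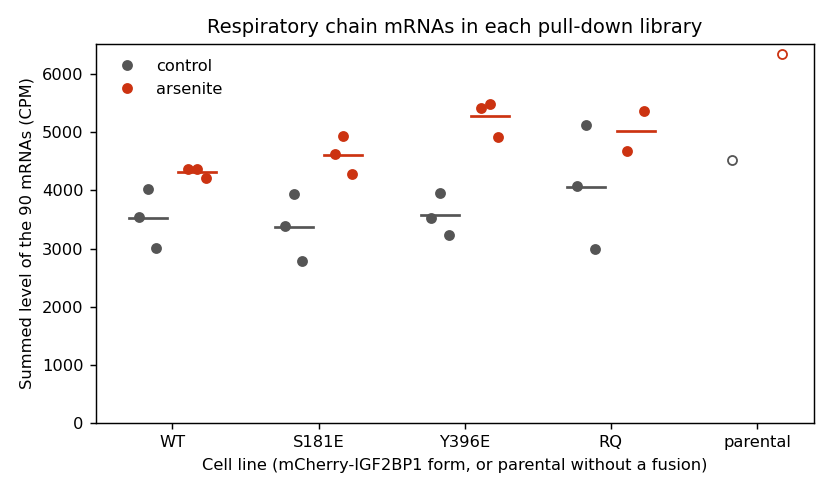
Summed level of the 90 nuclear-encoded respiratory chain mRNAs (y axis, CPM) in each library by group (x axis); each point is 1 library. The Y396E arsenite libraries lie between 4926 and 5495 and the WT arsenite libraries between 4206 and 4377, and the parental arsenite library is at 6344.

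Of the 90 genes, 66 exceeded 10 CPM in 12 or more of the 23 libraries with the fusion protein and were tested, 25 of complex I, 3 of complex II, 9 of complex III, 12 of complex IV and 17 of complex V. The other 24 stayed below it. They included SDHA, the flavoprotein that oxidises succinate, with a mean of 6.66 CPM (range 0.958 to 14.3), and ATP5ME with 10.0 CPM. Where a subunit has tissue-specific isoforms, the widely expressed one was the one measured. COX7A2, COX8A, COX6A1 and COX4I1 were tested, whereas COX4I2 and COX7A1 had 0 counts in all 23 libraries, COX6A2 was at most 0.36 CPM and the testis isoform COX6B2 averaged 1.28 CPM. NDUFA4 and UQCRH were tested, and their relatives NDUFA4L2 and UQCRHL averaged 0.972 and 1.08 CPM. Reads that map to several places were not counted, so genes with near-identical copies such as UQCRH and UQCRHL, or overlapping genes such as NDUFC2 and NDUFC2-KCTD14, are uncertain.

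In the WT pull-down, arsenite raised some respiratory chain mRNAs and lowered others. ATP5F1B, NDUFS3, UQCRC1 and NDUFV1 were among those that rose, and ATP5MJ, ATP5PF, ATP5F1E, UQCRQ and UQCRB fell most. Of the 66 genes, 14 were higher and 17 lower in arsenite, where 35.4% and 31.8% of all 8734 genes tested were higher and lower. Calls required an adjusted p below 0.05 in edgeR's quasi-likelihood test and a change over 20%. The median log2 difference was -0.08 for the 66 and 0.03 for all genes. By complex, 5 genes were higher and 2 lower in complex I, 1 and 0 in complex II, 3 and 4 in complex III, 0 and 5 in complex IV, and 5 and 6 in complex V. The control and arsenite libraries overlapped for NDUFS1 and UQCRQ.

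ATP5F1B had 252, 279 and 217 CPM in WT control and 941, 999 and 910 CPM in WT arsenite. Every arsenite library was above every control library, and the log2 difference was 1.92 ± 0.16 (SE, edgeR adjusted p = 4.24e-10). ATP5F1A, the α subunit that forms the catalytic head with it, rose from 151, 197 and 154 to 325, 339 and 324 CPM, by 0.97 ± 0.13 in log2. The γ subunit ATP5F1C, which turns inside that head, and ATP5PB, of the stalk that holds the head in place, rose by 0.47 ± 0.12 and 0.77 ± 0.15. In complex III, UQCRC1, a core protein of the matrix arm, had 46.4, 39.4 and 37.3 CPM in control and 95.5, 114 and 86.7 CPM in arsenite. Its groups were apart as well, by 1.25 ± 0.22 in log2 (edgeR adjusted p = 2.32e-05). Its partner UQCRC2 rose by 0.72 ± 0.09 and CYC1 by 0.77 ± 0.21. In complex I, NDUFS3 rose by 1.62 ± 0.44, NDUFV1, which binds the flavin, by 1.18 ± 0.25, NDUFV3 by 0.43 ± 0.10 and the iron-sulfur subunit NDUFS1 by 0.40 ± 0.14. NDUFS3 had 13.3, 9.18 and 1.31 CPM in the control libraries, the last in replicate 3, and 25.9, 28.0 and 22.2 CPM in arsenite. SDHC, a membrane anchor of complex II, rose by 0.56 ± 0.12, and SDHB, at 33.6, 34.5 and 23.7 against 44.4, 41.6 and 36.1 CPM, was not called.

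Among those that fell, ATP5PF, coupling factor 6 of the ATP synthase stalk, had 106, 79.3 and 85.5 CPM in WT control and 37.4, 31.9 and 36.7 CPM in arsenite. The highest arsenite library was below the lowest control library, with a log2 difference of -1.37 ± 0.13 (SE, edgeR adjusted p = 3.35e-09). ATP5MJ had 25.6, 39.2 and 29.5 CPM and then 11.1, 10.96 and 11.6 CPM, a difference of -1.49 ± 0.28 (edgeR adjusted p = 7.14e-05). ATP5F1E had 44.8, 42.3 and 26.8 CPM and then 15.5, 14.9 and 15.3 CPM, a difference of -1.33 ± 0.24. Both mRNAs were nearly level among the arsenite libraries and spread over a wider range among the control ones. The other ATP synthase subunits that fell, ATP5MG, ATP5MK and ATP5MF, are small membrane subunits. They differed by -0.82, -0.74 and -0.70 in log2. In complex III the small subunits UQCRQ, UQCRB, UQCRH and UQCR11 differed by -1.19, -1.18, -0.94 and -0.71. All 5 called genes of complex IV fell, with COX6B1 at -1.10, COX7A2 at -1.09, COX8A at -1.02, COX7A2L, which takes part in joining complexes into supercomplexes, at -0.83 and COX7C at -0.64. COX8A had 116, 134 and 84.3 CPM in control and 57.6, 57.0 and 51.8 CPM in arsenite. In complex I the called decreases were NDUFC1 at -0.68 and NDUFB2 at -0.51. COX4I1 and COX5A, the best known nuclear subunits of complex IV, were not called, with differences of -0.12 ± 0.21 and 0.38 ± 0.18.

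The 14 mRNAs that rose and the 17 that fell did not overlap in coding length. The shortest coding sequence among those that rose was 429 nt (median 1377 nt), and the longest among those that fell was 345 nt (median 252 nt). Over the 66 mRNAs the log2 difference in WT correlated with the log2 of coding length at r = 0.78 (Spearman's rho 0.773), where all 8734 genes had r = 0.342 and rho 0.361. These correlations are across genes, which share the same 6 libraries and are not independent replicates. The length of the 3' untranslated region had r = -0.063 over the 66 and r = -0.22 over all genes. The GC content had r = 0.17 over the 66 and r = 0.116 over all genes. The respiratory chain mRNAs are short, with a median coding length of 420 nt (range 156 to 2184) against 1461 nt for all genes tested. Other genes of the same lengths were therefore set beside them, with the split at 420 nt chosen after the values had been seen. At or below 420 nt, 17 of the 33 respiratory chain mRNAs fell and 0 rose in WT, with a median of -0.58, while 76.3% of the 401 other genes fell and 2.0% rose, with a median of -0.84. Above 420 nt and up to the longest subunit, 0 of 33 fell and 14 rose, with a median of 0.27 (42.4% higher), while 34.1% of 5764 other genes fell and 31.5% rose, with a median of -0.03. The bipartite pattern shown above was held by 13 of the 14 mRNAs that rose, 6 of the 17 that fell and 24 of the 35 not called. The rates were 0.896, 0.369 and 0.758 matches per kilobase. Of all genes tested, 88.2% held it. The median mRNA lengths were 1686 nt for those that rose, 629 nt for those that fell and 744 nt for those not called. Longer mRNAs have more room for a match, and a link between the pattern and the change was not tested.

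Arsenite also raised ATP5F1B and lowered ATP5PF in each mutant line. In S181E, 15 genes were higher and 16 lower (33.3% and 34.6% of all genes). In Y396E, 17 were higher and 6 lower (31.3% and 33.8%), and in RQ 11 were higher and 19 lower (32.4% and 32.3%). The median over the 66 was 0.11 in S181E, 0.15 in Y396E and -0.16 in RQ. ATP5F1B rose by 1.79 ± 0.16 in S181E, 1.78 ± 0.16 in Y396E and 1.97 ± 0.17 in RQ, and ATP5PF differed by -1.18 ± 0.13, -0.87 ± 0.13 and -0.88 ± 0.15. UQCRC1, NDUFV1, NDUFV3, SDHC, UQCRC2, CYC1 and ATP5F1A rose in all 4 lines, and UQCRB, COX7A2L and ATP5MG fell in all 4. The correlation with coding length over the 66 was r = 0.779 in S181E, 0.736 in Y396E and 0.777 in RQ. Among the 33 shorter mRNAs, 15 fell in S181E, 5 in Y396E and 18 in RQ, or 45.5%, 15.2% and 54.5%, against 66.8%, 59.4% and 73.6% of the 401 other genes of such coding length. Among the 33 longer mRNAs, 15, 17 and 11 rose, or 45.5%, 51.5% and 33.3%, against 29.4%, 27.3% and 28.6% of 5764 other genes. SDHA, below the filter, was listed at 2.82, 0.958 and 2.54 CPM in WT control and 9.13, 6.62 and 10.3 CPM in WT arsenite, and at 13.8, 11.4 and 14.3 CPM in Y396E arsenite.

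Whether the arsenite difference itself differed between a mutant and WT was tested by the interaction term of the same edgeR model. None of the 66 genes was called for S181E, Y396E or RQ, where 0.389%, 2.85% and 0.0687% of all genes were. This depended on the model. With a replicate block, or without the control libraries numbered 3, genes were called for S181E and Y396E, with counts given at the end. At an unadjusted p under 0.05 in the model without the block there were 5, 9 and 2 of the 66. Over all 8734 genes there were 1128, 1569 and 844. DESeq2 called 0, 1 and 0 of the 66. Of all genes with an unadjusted p under 0.05 for Y396E, 417 had positive and 1152 negative terms. The 9 respiratory chain genes of Y396E all had positive terms, which means a smaller fall in Y396E than in WT for 8 of them. ATP5MJ had the lowest p, with a term of 1.23 ± 0.39 (edgeR adjusted p = 0.0912). It was followed by ATP5PF with 0.49 ± 0.18 and UQCRH with 0.88 ± 0.33. Against the fall in WT given above, the ATP5MJ level in Y396E was 24.3, 20.1 and 16.7 CPM in control and 17.2, 18.0 and 15.6 CPM in arsenite. The ranges of the Y396E groups overlap.

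Under arsenite, SDHD, UQCRH, UQCRC1, ATP5PO and SDHB were the mRNAs most raised in Y396E over WT, and UQCRB and NDUFA12 were lower. Of the 66 genes, 11 were higher and 2 lower, against 13.1% and 19.4% of all genes, and the median log2 difference was 0.29 against 0.01. The share of the 66 called higher, 16.7%, was near that of all genes, and the share called lower was 3.03%. DESeq2 called 13 higher and 2 lower. The increases came from complex II (2 of 3 genes), complex III (4 of 9), complex IV (1 of 12) and complex V (4 of 17).

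SDHD, the other membrane anchor of complex II, had 15.1, 15.4 and 14.0 CPM in WT arsenite and 28.0, 22.3 and 21.6 CPM in Y396E arsenite. The lowest Y396E library was above the highest WT library, with a log2 difference of 0.72 ± 0.18 (SE, edgeR adjusted p = 0.00365). SDHB had 44.4, 41.6 and 36.1 CPM in WT and 69.8, 63.5 and 53.9 CPM in Y396E, a difference of 0.65 ± 0.20 (adjusted p = 0.016). UQCRC1 rose from 95.5, 114 and 86.7 CPM in WT to 166, 156 and 140 CPM in Y396E, by 0.67 ± 0.21. In complex III, UQCRH, the hinge protein at cytochrome c1, was higher by 0.69 ± 0.23, UQCRFS1, the Rieske iron-sulfur protein, by 0.55 ± 0.19 and UQCRC2 by 0.27 ± 0.09. ATP5F1B had 1383, 1438 and 1284 CPM in Y396E arsenite, every value above the WT range, and the difference was 0.56 ± 0.15 (edgeR adjusted p = 0.00816). ATP5PO, the stalk protein that confers oligomycin sensitivity, ATP5MC3, a gene of the membrane ring, and ATP5F1A were higher by 0.67 ± 0.23, 0.56 ± 0.17 and 0.36 ± 0.13. COX7B, a small subunit of complex IV, was higher by 0.59 ± 0.22. The pair that went down was UQCRB, a subunit of complex III that lines the ubiquinone-binding region, and NDUFA12, an accessory subunit of complex I. UQCRB had 33.4, 30.5 and 38.1 CPM in WT arsenite and 24.5, 19.7 and 17.6 CPM in Y396E arsenite, a difference of -0.69 ± 0.17 (edgeR adjusted p = 0.00344). NDUFA12 had 38.0, 31.3 and 38.8 CPM against 25.1, 22.8 and 26.8 CPM, a difference of -0.50 ± 0.17.

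**Figure D2:**
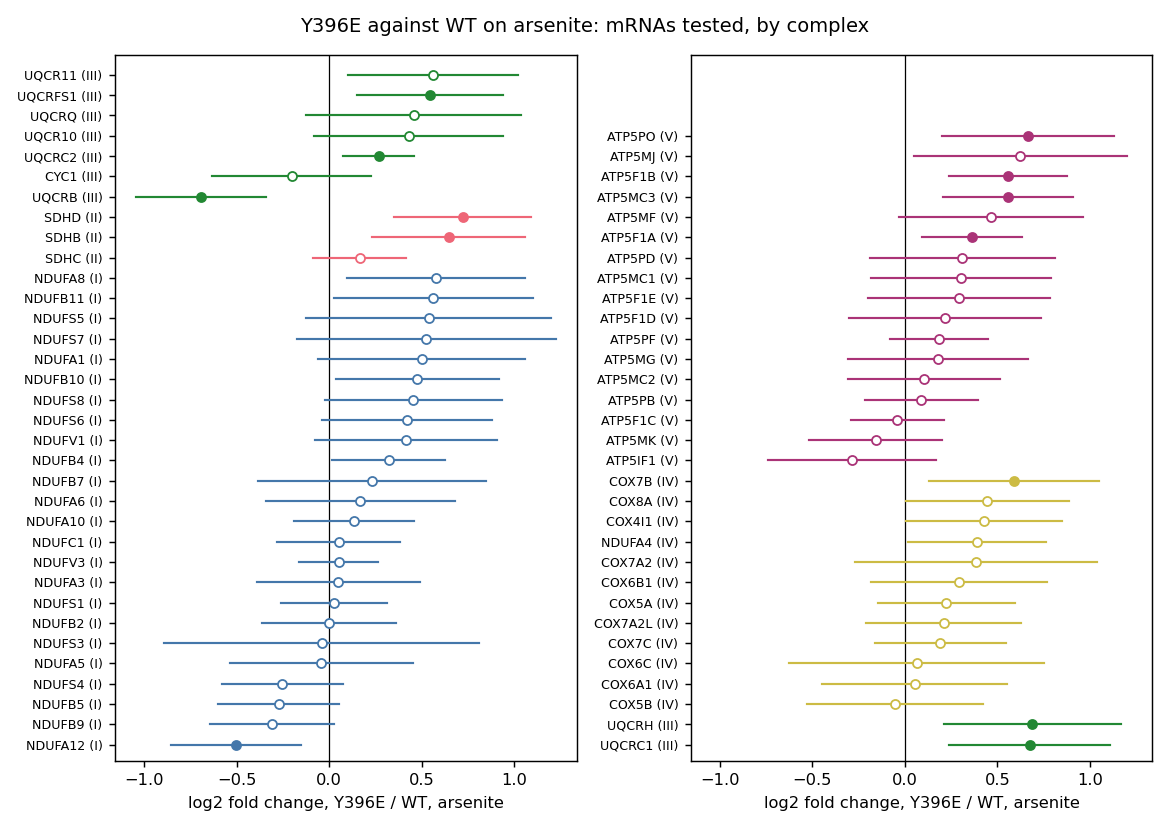
Log2 difference of Y396E against WT in arsenite (x axis, points, with 95% confidence intervals from edgeR as bars) for 65 of the 66 tested mRNAs grouped by complex (y axis); filled points were called. Called increases appear in complexes II to V, and UQCRB and NDUFA12 are the called decreases.

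Under arsenite the difference did not follow coding length (r = -0.001 over the 66). The medians were 0.29 for the shorter 33 and 0.31 for the longer 33, against 0.15 and 0.03 for other genes of the same lengths. Over all genes the difference correlated with the length of the 3' untranslated region at r = -0.291 and with GC content at r = 0.385. Over the 66 these were -0.151 and 0.165. The median 3' untranslated region was 193.5 nt in the 66 and 1534 nt in all genes. The part of either feature in the higher median of the 66 was not tested. With TMM factors from the genes that did not exceed the parental library, all genes shifted by a median of -0.29 and the respiratory chain mRNAs then showed 8 lower and 0 higher. These 1532 reference genes include 25 of the 66. The shares of all genes called under this scaling are not given here, so the 8 have no background beside them. The higher calls are relative to the other mRNAs in the pull-down. The 66 kept a median above that of all genes by 0.27 to 0.31 in the alternatives run. A new scaling moves all genes by nearly the same amount, so the scaling alternatives could hardly change this gap and do not test it. The count of 13 also depended on single libraries. It was 3 without WT replicate 3 or without Y396E replicate 1, 5 without Y396E replicate 2, 7 without WT replicate 1 and 8 without WT replicate 2. SDHD, ATP5F1B and UQCRB were called without any 1 of the 6 libraries.

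In the same comparison the mRNAs encoded by mitochondrial DNA went the other way. Of 13, 6 were lower and 0 higher (19.4% of all genes were lower), with MT-CYB, the mitochondrial subunit of complex III, at 17060 CPM in Y396E against 33740 CPM in WT, a difference of -0.95 ± 0.19, and MT-ND1, of complex I, at -0.95 ± 0.17. Their summed level was 137393 CPM in Y396E arsenite and 224438 CPM in WT arsenite, and 106322 and 203729 CPM in control. They made up 8.395 to 21.148% of the protein-coding counts of mCherry libraries, and the part of this difference in the levels of the nuclear-encoded mRNAs was not tested.

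In control, 6 of the 66 genes were higher in Y396E than in WT and 4 lower (16.2% and 12.7% of all genes), with a median of 0.06 against 0.05. Unlike in arsenite, the difference correlated with coding length over the 66 (r = 0.445), against r = -0.015 over all genes. The medians were -0.185 for the shorter 33 and 0.118 for the longer 33, against -0.088 and 0.09 for other genes of the same lengths. ATP5F1B had 369, 431 and 401 CPM in Y396E control, all above the WT range of 217 to 279, a difference of 0.70 ± 0.16 (edgeR adjusted p = 0.00172). ATP5PO, COX7B, SDHB, ATP5MC3 and ATP5F1A were higher by 0.71, 0.66, 0.57, 0.56 and 0.46. These 6 genes were also called higher in arsenite, in other libraries of the same lines. The share of all genes called higher in both treatments is not given here, so this overlap has no background beside it. UQCRB had 67.9, 95.3 and 66.4 CPM in WT control and 33.8, 35.6 and 29.3 CPM in Y396E control, with a difference of -1.20 ± 0.17 (adjusted p = 1.51e-05), and the groups lay far apart. NDUFB9, an accessory subunit of complex I, NDUFA12 and ATP5MK differed by -0.60, -0.55 and -0.54. Over 17 alternatives the calls of ATP5F1B and UQCRB were kept in all, and those of ATP5PO, COX7B, SDHB, ATP5MC3, NDUFB9, NDUFA12 and ATP5MK were lost in 3 to 7 each.

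S181E had 5 genes lower and 2 higher than WT in control (8% and 12.8% of all genes), with a median of -0.10 against 0.05. UQCRB was again the lowest, at 45.9, 29.8 and 37.8 CPM, below every WT control library, with a difference of -1.001 ± 0.17 (edgeR adjusted p = 0.000208). NDUFS8, an iron-sulfur subunit of complex I, NDUFB9, the ATP synthase inhibitor ATP5IF1 and NDUFC1 differed by -0.83 ± 0.24, -0.77 ± 0.17, -0.74 ± 0.23 and -0.53 ± 0.16. ATP5PB and NDUFS1 were higher by 0.42 ± 0.15 and 0.39 ± 0.14. Of 17 alternative settings, the call was lost in 5 for NDUFS8, 4 for ATP5IF1, 7 for NDUFC1, 9 for ATP5PB and 10 for NDUFS1, and in 0 for UQCRB and NDUFB9. ATP5IF1 had 19.8, 16.9 and 32.4 CPM in WT and 15.1, 8.44 and 17.2 CPM in S181E, and the groups overlap. In arsenite only NDUFB9 was called, with 77.8, 81.5 and 81.6 CPM in WT and 54.1, 58.2 and 52.0 CPM in S181E, a difference of -0.55 ± 0.16 (edgeR adjusted p = 0.0376). This call was lost when any 1 of the 6 libraries was left out, and also when libraries were scaled by total counts, when the 20% change itself was tested (glmTreat) and when all biotypes were fitted. No gene was called higher (1 at an unadjusted p under 0.05, 0 by DESeq2), where 5.34% and 2.2% of all genes were lower and higher. Of all 8734 genes, 689 were higher at an unadjusted p under 0.05. Replicate numbers paired these libraries, and with the replicate block 2 genes were lower and 1 higher. UQCRB had 22.4, 22.3 and 29.0 CPM in S181E arsenite, below every WT arsenite library, and was not called (adjusted p = 0.0905).

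RQ had 2 genes higher and 0 lower than WT in control (3.51% and 2.83% of all genes), with a median of 0.25 against 0.03. They were ATP5PO, by 0.82 ± 0.23 (edgeR adjusted p = 0.0355), and ATP5MC3, by 0.67 ± 0.17 (adjusted p = 0.0233). Neither was called without WT replicate 3 or without RQ replicate 2, and ATP5PO was not called without RQ replicate 1 or WT replicate 2. The number of genes called was 10 without WT replicate 2 or RQ replicate 3. No gene was called lower by edgeR (1 at an unadjusted p under 0.05, 1 by DESeq2). Of all 8734 genes, 819 were lower at an unadjusted p under 0.05. UQCRB, at 107, 104 and 83.1 CPM in RQ control, lay above S181E and Y396E and overlapped with WT. In arsenite no gene was called (0.286% of all genes higher and 0.218% lower), and 9 of the 66 had an unadjusted p under 0.05, of which 8 were higher in RQ. Of all 8734 genes, 842 had such a p, of which 378 were higher. DESeq2 also called 0 of the 66. Each comparison of a mutant with WT within a treatment uses the same WT libraries. Within a treatment the 3 mutants are therefore not independent of one another.

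Subunit c of the ATP synthase ring is encoded by 3 genes that give the same mature protein. ATP5MC3 rose in WT arsenite by 0.41 ± 0.17 and was higher in Y396E than WT under both treatments and in RQ in control. ATP5MC1 and ATP5MC2 were not called in WT arsenite (-0.33 ± 0.24 and -0.27 ± 0.20) or in Y396E arsenite (0.30 ± 0.24 and 0.10 ± 0.20). A difference between the 3 genes was not tested.

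Among 57 assembly factors and carriers, 35 were tested. In WT arsenite 13 were lower and 6 higher (37.1% and 17.1%, against 31.8% and 35.4% of all genes). COX20 and COA4, which help to build complex IV, differed by -1.60 ± 0.11 and -1.12 ± 0.17, and ACAD9 and NDUFAF7, complex I assembly factors, by 1.33 ± 0.28 and 1.45 ± 0.29. In Y396E arsenite 7 were lower and 4 higher than in WT (20% and 11.4%, against 19.4% and 13.1% of all genes), from LYRM7, which matures the Rieske protein, at -0.81 ± 0.13 to NDUFAB1, the mitochondrial acyl carrier protein, at 0.69 ± 0.26. LYRM7 was also the only gene of this list called for the Y396E interaction (-0.69 ± 0.18, edgeR adjusted p = 0.0326). In Y396E control 3 were lower and 3 higher (8.57% each, against 12.7% and 16.2%), with TMEM70, an ATP synthase assembly factor, at -0.81 and ACAD9 at 0.85. Of 10 regulators of mitochondrial genes, 9 were tested. In WT arsenite POLRMT, the mitochondrial RNA polymerase, rose by 1.54 ± 0.15 and TFB2M by 1.32 ± 0.29, and TFAM, which packages mitochondrial DNA, differed by -0.62 ± 0.13. In S181E control NRF1 differed by -0.64 and GABPB1 by 0.48. Of the 13 mRNAs encoded by mitochondrial DNA, none was higher and 10 were lower in Y396E control, 6 in S181E control, 4 in S181E arsenite, 1 in RQ control and 0 in RQ arsenite (also 0 at an unadjusted p under 0.05 in edgeR's test). In that order, 12.7%, 8%, 5.34%, 2.83% and 0.218% of all genes were lower. MT-ND1 had 3853 CPM in Y396E control and 9848 CPM in WT control, a difference of -1.34 ± 0.18. In WT arsenite 2 of the 13 were lower and 3 higher than in control, or 15.4% and 23.1%, against 31.8% and 35.4% of all genes.

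Against the parental pull-down in arsenite, none of the 66 mRNAs reached 4-fold in any line, where 9.18% of all genes did in WT, 8.24% in S181E, 6.14% in Y396E and 8.36% in RQ. The median ratio was 0.581 in WT, with 49 of 66 below 1, against 1.14 for all genes, of which 43.2% were below 1. It was 0.586 in S181E, 0.703 in Y396E and 0.665 in RQ. In WT the ratios ran from 0.173 for UQCRH to 3.04 for NDUFA3, an accessory subunit of complex I, and the highest in any line was 3.50 for NDUFA4 in RQ. ATP5F1B had 828 CPM in the parental library and a ratio of 1.15 in WT and 1.65 in Y396E. With 1 parental library per treatment these ratios have no replicate check and no test. In control the parental library was shallow, and 20 of the 66 mRNAs had 0 counts there, which allows up to 2.02 CPM (3 counts, counting error only). ATP5PO, ATP5PF and COX5A were among them. A gene was counted as over at 4-fold or more, or at any level where the parental count was 0. By this, 21 of 66 were over in WT, S181E and Y396E and 22 in RQ, against 49%, 49.2%, 48.5% and 48.8% of all genes. These counts include the 20 mRNAs with 0 parental counts, and the bound of 2.02 CPM was not applied. Of all 8734 genes, 5162 had a parental count above 0. Between the parental libraries the 45 mRNAs with more than 3 counts in control gave a log2 ratio of arsenite to control that correlated with coding length at r = 0.384, where WT had r = 0.831 over the same genes. The 22 shorter ones had a median of -0.31 and the 23 longer ones 0.26. These 2 libraries lack the fusion protein, and the part of bead background in the arsenite differences of the mCherry lines was not tested.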

How the data were processed

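RIP-seq libraries of mCherry-IGF2BP1 (23) and parental (2) HCT116 cells were grouped by the genotype and treatment in the labels. The authors depleted rRNA, aligned reads to hg38 with STAR 2.7.11b and counted them on GENCODE exons with featureCounts (Subread 2.0.6). The values the authors deposited are raw counts for 63086 genes in each library. Multi-mapping reads were not counted, per the file headers, which give no option for them. Symbols and biotypes came from GENCODE v44, where 545 identifiers were not found.

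As in the methods, protein-coding genes had to exceed 10 CPM in no fewer than 11.5 of the 23 libraries with the fusion protein, which left 8734. TMM factors and edgeR's quasi-likelihood test (edgeR 4.0.16, limma 3.58.1, R 4.3.3) were used, with DESeq2 1.42.0 as an alternative, with 8 groups, no covariates and Benjamini-Hochberg adjustment over all genes tested. Calls needed an adjusted p under 0.05 and a change over 20%. Printed CPM use TMM over all 25 libraries, and SE and intervals (95%) come from the model. Tables and plots used Python 3.11.15, pandas 2.3.3 and matplotlib 3.10.9. In simulated data, 47% of 1.5-fold and 91% of 2-fold changes were recovered for Y396E against WT in arsenite, with 7 false calls among 8734 genes. The simulated libraries were independent, with 100 genes changed at each fold and no replicate effect. These figures therefore do not give the error rate of the calls in the real data. Replicate numbers met the cutoff set for pairing only for S181E and WT in arsenite, by correlations of 0.283 to 0.392 of same-numbered libraries. Same-numbered libraries also correlated above all others for Y396E and WT in arsenite (0.086 to 0.213, others at most 0.003). The same held for RQ and WT in control (0.091 to 0.34, others at most 0.084) and in arsenite, and for S181E arsenite and control. The main tests did not use replicate numbers, and counts with a replicate block are given at the end. Neither labels nor methods describe a shared batch.

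The genes, gene lists and tests were chosen with earlier results of these data known. Named genes were core subunits, the subunit c genes, isoform pairs, the 5 lowest and 5 highest called genes in each comparison, the most abundant gene of each complex and the 2 lowest and 2 highest called genes of the other lists. Further called genes were named after their values were seen, as were the sequence features and the genes whose replicates are given. Alternatives covered scaling, filter, test, samples in the model, the replicate block and leaving out libraries. RNA-Seq libraries were not analysed here. Results for 1 gene are not reported here.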

Additional observations from a re-analysis of the deposited data

How the results depend on the processing

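Counts are of the 66 respiratory chain genes called, without the share of all genes called in the same setting. A change in a count may therefore be shared by all genes and is not a result about the respiratory chain. The counts for WT, S181E and RQ in arsenite against control stayed within 1.5 times under all alternatives except as given here. The calls of ATP5F1B, UQCRC1 and ATP5PF in WT arsenite were kept throughout. Scaling by total counts gave 11 for S181E and 17 for Y396E against WT in control, and 0 and 28 in arsenite. TMM factors from the genes that did not exceed the parental library gave 16 for Y396E in control, and 3 for S181E and 8 for Y396E in arsenite, all 8 lower, and UQCRC2 then had -0.026 (adjusted p = 0.867). DESeq2's Wald test gave 4 for RQ in control, 2 for S181E in arsenite and 1 for the Y396E interaction. A test against the 20% change itself (glmTreat) gave 2, 2 and 0 for S181E, Y396E and RQ in control, 0 and 2 for S181E and Y396E in arsenite, and 15 for Y396E arsenite against control. With all biotypes S181E in arsenite had 0. Fitting only the groups compared gave 2, 6 and 0 for S181E, Y396E and RQ in control, 6, 38 and 17 in arsenite, 19 for RQ arsenite against control and 2 for the Y396E interaction.

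With the replicate block, the counts were 19, 19 and 9 in control, 3, 25 and 1 in arsenite, and 1 and 7 for the S181E and Y396E interactions. Without the control libraries numbered 3, an alternative chosen after seeing the data, they were 12, 19 and 8 in control and 2 and 8 for these interactions, and WT arsenite against control had 25 lower and 13 higher. Leaving out 1 library in turn gave 4 to 10 for S181E, 4 to 10 for Y396E and 0 to 10 for RQ in control, 0 to 0 for S181E and 3 to 13 for Y396E in arsenite, and, for arsenite against control, 28 to 34 in WT, 22 to 29 in S181E, 17 to 25 in Y396E and 20 to 33 in RQ. S181E in control had 4 without S181E replicate 1 and Y396E in control 4 without Y396E replicate 2. RQ in control had 10 without WT replicate 2 or RQ replicate 3, 1 without RQ replicate 1 and 0 without WT replicate 3 or RQ replicate 2. UQCRB kept its 3 calls against WT in every alternative. The causes of these changes were not tested.

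Over the parental level, edgeR's filterByExpr gave 34, 34, 34 and 35 genes in control for WT, S181E, Y396E and RQ and 3, 3, 3 and 3 in arsenite, with more genes tested, and a 2-fold threshold gave 3, 5, 4 and 4 in arsenite. Depth limits the parental control most, with 742207 protein-coding counts.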
